A study of Mus musculus with 6 samples.

Results

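The genes examined here are Saa1, Saa2, Saa3, Orm1, Orm2, Hp, Lcn2, Apcs, Itih3 and Itih4, 10 genes of acute phase proteins, the plasma proteins whose hepatic output changes during inflammation. They were represented by every probe set that the array annotation assigns to 1 of these symbols and to no other gene, which gave 10 of the 18193 genes and 11 of the 45037 probe sets, 2 of them for Saa1 and 1 for each other gene. Whole-liver RNA was measured on Affymetrix mouse genome arrays, 1 array per mouse, in 3 FRG-7dNTBC mice and 3 FRG+NTBC mice. All 6 were FRG mice, males with a C57Bl/6J background and a constitutive triple knockout (Fah-/-, Rag2-/-, Il2rg-/-), and were 12 weeks old at sampling. FRG+NTBC mice drank 16 mg/L NTBC (nitisinone) without interruption, and in FRG-7dNTBC mice the drug had been stopped at 11 weeks of age, 7 days before sampling. Mice of both groups therefore have no fumarylacetoacetate hydrolase (FAH), with which tyrosine breakdown ends, and no mature T, B or NK cells, and no mouse with an intact Fah gene is among the 6. NTBC blocks HPD, an enzyme upstream of FAH, so that the toxic intermediates that FAH would clear are not formed.

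In the acute phase response, hepatocytes change the set of proteins they secrete when cytokines reach the liver. Interleukin 6 acts through STAT3, and interleukin 1 and TNF act through NF-kappaB and the C/EBP factors. Serum amyloid A, orosomucoids, haptoglobin and serum amyloid P are textbook induced proteins of the mouse, whereas albumin is the textbook protein that declines. The comparison asks how these genes stand in the liver of Fah-deficient mice after the drug is stopped.

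The acute phase genes did not move in 1 direction. Lcn2, Orm2, Orm1 and Apcs were higher in FRG-7dNTBC livers, by 26.5-, 4.74-, 2.15- and 2.06-fold. Saa1, Saa2, Itih3 and Itih4 were lower, by 3.26-fold at the brighter Saa1 probe set and by 1.70-, 2.49- and 2.71-fold at the others. Hp and Saa3 did not pass the test. A probe set was called where limma gave an adjusted p under 0.05, with Benjamini-Hochberg adjustment over all probe sets, and each log2 fold change below is FRG-7dNTBC minus FRG+NTBC. By this rule 4 of the 11 probe sets were higher and 5 lower, against 14.0% and 13.9% of all probe sets. The values of the 3 FRG-7dNTBC mice all lay above those of the 3 FRG+NTBC mice at 5 probe sets and all below at 5, against 18.6% and 25.5% of all probe sets, and Hp was the exception. Over the 11 probe sets the median log2 fold change was -0.19, and that of all probe sets was -0.08.

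**Figure D1:**
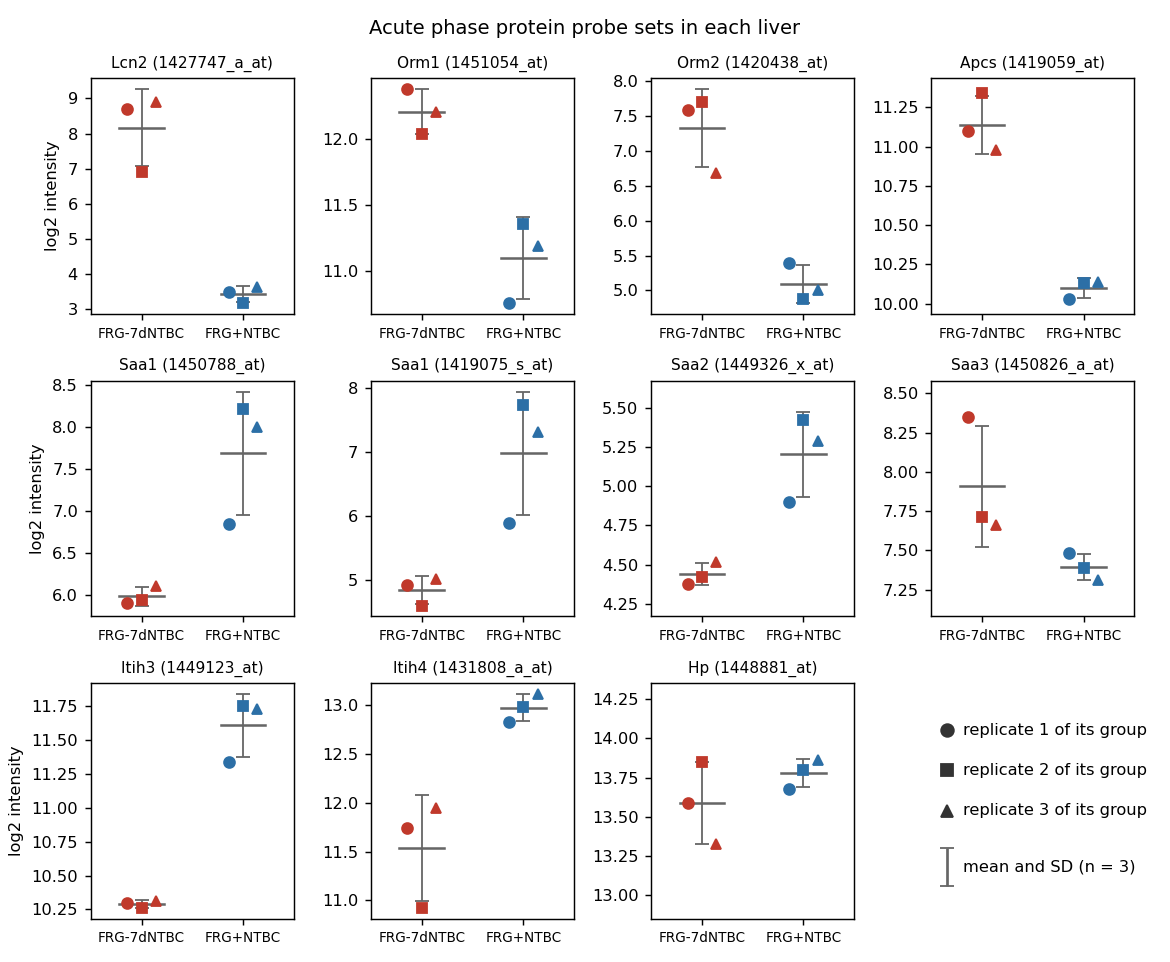
Log2 intensity of each acute phase probe set in each liver, with FRG-7dNTBC mice (red) on the left and FRG+NTBC mice (blue) on the right of every panel; horizontal lines and bars are the mean and SD of 3 mice, and each panel has its own vertical range. The groups overlap in the Hp panel alone, and the circle of FRG+NTBC replicate 1 is the lowest of its group in 8 of the 11 panels.

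The arrays were alike in overall level, with a median intensity of 33.1 to 34.3 in FRG-7dNTBC livers and of 35.3 to 36.5 in FRG+NTBC livers. Over all genes at their brightest probe set, limma called 17.4% higher and 12.7% lower, the background for each count of listed genes. The 7 hepatocyte markers measured lay between 3236 and 27939 in every liver, with 0 called higher and 2 lower by limma (0 and 3 at a raw p under 0.05). The count of lower hepatocyte markers was 1 when FRG-7dNTBC replicate 1 or any FRG+NTBC mouse was left out. Of 10 macrophage and Kupffer cell markers, 6 were called higher and 0 lower by limma (also 6 and 0 at a raw p under 0.05), but 1 was called higher without limma's moderation, which shares variance information between probe sets, 3 when FRG-7dNTBC replicate 1 was left out, 3 when FRG+NTBC replicate 1 was, and 2 when FRG+NTBC replicate 2 was. Their summed intensity was 2435 to 6120 in FRG-7dNTBC livers and 1914 to 2915 in FRG+NTBC livers, and the lowest single value among them was 13.3. Of 10 neutrophil markers, limma called 0 in either direction (0 higher and 2 lower at a raw p under 0.05, and 1 in each direction with array weights or a replicate block), their summed intensity was 292 to 411 in FRG-7dNTBC livers and 318 to 419 in FRG+NTBC livers, and no value exceeded 84.5. These are whole-liver values, so a change in the share of a cell type and a change in RNA per cell cannot be told apart. Both groups carry the same knockouts, so these cannot check the labels. Rag2 signal was 18.0 to 21.4 in FRG-7dNTBC livers and 16.5 to 22.5 in FRG+NTBC livers. Fah signal was 119, 81.0 and 86.8 in FRG-7dNTBC livers, against 215, 182 and 197 in FRG+NTBC livers, with means of 95.5 ± 20.2 in FRG-7dNTBC livers and 198 ± 16.5 in FRG+NTBC livers (SD, n = 3 mice each).

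Lcn2 encodes lipocalin 2, which binds bacterial siderophores and so withholds iron, and is made by hepatocytes, neutrophils and macrophages. Its intensity (probe set 1427747_a_at, chromosome 2, 32384637 to 32387739 in GRCm38.p6) was 419, 120.3 and 474 in the FRG-7dNTBC mice and 11.4, 9.06 and 12.5 in the FRG+NTBC mice. Every FRG-7dNTBC liver was above every FRG+NTBC liver, and FRG-7dNTBC replicate 2 stood well below the other two. The means were 338 ± 190 in FRG-7dNTBC livers and 11.0 ± 1.74 in FRG+NTBC livers (SD, n = 3 mice each), a log2 fold change of 4.73 (SE 0.47, limma adjusted p = 0.000343). FRG+NTBC values fell between the 13.4th and the 22.6th percentile of their arrays, low on the scale, so the direction is measured but the size of the fold is uncertain. Leaving out FRG-7dNTBC replicate 2 brought the log2 fold change to 5.36. Of the macrophage markers 6 of 10 were higher in FRG-7dNTBC livers, as given above, and of the neutrophil markers 0 of 10, and their part in the Lcn2 difference was not tested.

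The 250 bases before the Lcn2 and Orm2 start sites are shown because these are the genes with the largest rises, with the match to the C/EBP motif TTGCNNAA in capitals (RefSeq promoter table, GRCm38.p6, strand of the gene). They cover chr2:32387740-32387989 for Lcn2 and chr4:63362199-63362448 for Orm2, and the matches begin 216 and 120 bases before the start.
Lcn2: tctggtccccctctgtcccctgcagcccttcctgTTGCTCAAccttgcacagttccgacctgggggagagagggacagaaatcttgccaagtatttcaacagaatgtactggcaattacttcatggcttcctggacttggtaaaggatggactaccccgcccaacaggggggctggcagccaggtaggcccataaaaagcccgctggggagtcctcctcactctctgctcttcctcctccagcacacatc
Orm2: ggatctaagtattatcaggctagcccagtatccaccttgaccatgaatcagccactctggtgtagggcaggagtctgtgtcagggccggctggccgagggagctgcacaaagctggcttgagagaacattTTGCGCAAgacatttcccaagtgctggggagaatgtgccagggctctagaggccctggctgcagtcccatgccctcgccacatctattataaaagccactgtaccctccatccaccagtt

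Orm1 and Orm2 encode orosomucoid (alpha-1-acid glycoprotein), an abundant plasma carrier of basic drugs and lipophilic compounds, and lie side by side on chromosome 4 (63344556 to 63348163 and 63362449 to 63365877). Orm1 (1451054_at) had intensities of 5330.3, 4211 and 4738 in FRG-7dNTBC livers, against 1734, 2628 and 2336 in FRG+NTBC livers. All FRG-7dNTBC values were above all FRG+NTBC values, and the lowest of the 6 came from FRG+NTBC replicate 1. The means were 4760 ± 560 in FRG-7dNTBC livers and 2233 ± 456 in FRG+NTBC livers (SD, n = 3 mice each), with a log2 fold change of 1.11 (SE 0.18, limma adjusted p = 0.00299). Orm1 lay between the 96.9th and the 99.0th percentile of every array, high on the scale in both groups.

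Orm2 (1420438_at) had intensities of 193, 209 and 103 in FRG-7dNTBC livers, against 41.9, 29.2 and 32.0 in FRG+NTBC livers. The groups were separated, and FRG-7dNTBC replicate 3 was the lowest of its group. The log2 fold change was 2.24 (SE 0.28, limma adjusted p = 0.000815), with means of 168 ± 57.1 in FRG-7dNTBC livers and 34.4 ± 6.67 in FRG+NTBC livers (SD, n = 3 mice each). FRG+NTBC values of Orm2 lay between the 45.0th and the 53.5th percentile of their arrays, so the size of its fold is uncertain. The third gene of the cluster, Orm3 (1450611_at), was not called. It measured 36.5, 28.1 and 30.5 in FRG-7dNTBC livers and 32.9, 26.2 and 25.8 in FRG+NTBC livers, with overlapping groups and a log2 fold change of 0.16 (SE 0.16, limma adjusted p = 0.481). Because the orosomucoid genes are close copies, probes of 1 gene may bind transcripts of another, and the probe sequences were not examined.

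Apcs encodes serum amyloid P component, a pentraxin that binds amyloid fibrils, DNA and microbial surfaces and is the main pentraxin of the mouse acute phase. Its probe set (1419059_at, chromosome 1, 172893961 to 172895054) gave 2195, 2592 and 2020 in FRG-7dNTBC livers, against 1046, 1121 and 1128 in FRG+NTBC livers. FRG+NTBC livers were nearly equal, with an SD of 45.7, and all FRG-7dNTBC livers lay above them. The means were 2269 ± 293 in FRG-7dNTBC livers and 1098 ± 45.7 in FRG+NTBC livers (SD, n = 3 mice each), and the log2 fold change was 1.04 (SE 0.13, limma adjusted p = 0.00104). Crp, the other short pentraxin, went the opposite way. Its intensity (1421946_at) was 393, 331 and 261 in FRG-7dNTBC livers, against 2759, 3848 and 4182 in FRG+NTBC livers, a log2 fold change of -3.45 (SE 0.21, limma adjusted p = 5.08e-05). In the mouse, unlike in humans, Crp is a minor acute phase protein.

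Serum amyloid A is a lipoprotein-associated family whose acute members, Saa1 and Saa2, are made mainly by hepatocytes, while Saa3 is also made by macrophages and adipocytes. Saa1, Saa2 and Saa3 lie in 1 cluster on chromosome 7 (46740497 to 46743181, 46751833 to 46754313 and 46711998 to 46719615). The brighter Saa1 probe set (1450788_at) gave 59.7, 61.4 and 69.1 in FRG-7dNTBC livers, against 115, 298 and 256 in FRG+NTBC livers. All FRG-7dNTBC values were below all FRG+NTBC values, FRG-7dNTBC mice were close to each other, and FRG+NTBC replicate 1 was far below the other FRG+NTBC mice. The means were 63.4 ± 4.99 in FRG-7dNTBC livers and 223 ± 95.7 in FRG+NTBC livers (SD, n = 3 mice each), with a log2 fold change of -1.71 (SE 0.32, limma adjusted p = 0.00585).

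The other Saa1 probe set (1419075_s_at) gave 30.5, 24.3 and 32.5 in FRG-7dNTBC livers, against 59.3, 214 and 159 in FRG+NTBC livers. It showed the same order of mice among FRG+NTBC livers and no overlap between groups. Its log2 fold change was -2.13 (SE 0.42, limma adjusted p = 0.00701). FRG-7dNTBC values of this probe set lay between the 42.3rd and the 48.8th percentile of their arrays, so the size of its fold is uncertain. Saa2 (1449326_x_at) gave 20.8, 21.4 and 22.9 in FRG-7dNTBC livers, against 29.9, 42.8 and 39.1 in FRG+NTBC livers. The groups were again separated, with means of 21.7 ± 1.09 in FRG-7dNTBC livers and 37.3 ± 6.67 in FRG+NTBC livers (SD, n = 3 mice each) and a log2 fold change of -0.76 (SE 0.16, limma adjusted p = 0.00879). These values lay between the 38.0th and the 54.1st percentile of the arrays, and this probe set was left out when those below the median mean intensity were, so the size of its fold is uncertain. Without moderation of the variances none of these 3 probe sets was called, with adjusted p-values of 0.0787 and 0.0886 for Saa1 and 0.0567 for Saa2. Saa1 and Saa2 cannot be told apart with certainty here, since the annotation ties 1419075_s_at to Saa1 while the transcript it cites is a Saa2 transcript in RefSeq, and each symbol is listed as an older name of the other.

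The promoters of the cluster are shown because Saa1 and Saa2 are nearly the same upstream of the gene as well, whereas Saa3, whose difference had the opposite sign and was not called, is not. Windows are the 250 bases before the start used in the RefSeq promoter table, whose transcript is not named. For Saa2 this start is the edge of the gene range given above, but 201 of the 250 bases for Saa1 and all 250 for Saa3 lie inside the gene range, which spans other transcript models. Over these windows, Saa1 (chr7:46742981-46743230) and Saa2 (chr7:46751583-46751832) were identical in 238 of 251 aligned columns (94.8%), while Saa1 and Saa3 (chr7:46715677-46715926) were identical in 48.5%. Capitals mark the match to the C/EBP motif TTGCNNAA on either strand, which begins 182, 183 and 99 bases before the start of Saa1, Saa2 and Saa3 and reads on the opposite strand in Saa3.
Saa1: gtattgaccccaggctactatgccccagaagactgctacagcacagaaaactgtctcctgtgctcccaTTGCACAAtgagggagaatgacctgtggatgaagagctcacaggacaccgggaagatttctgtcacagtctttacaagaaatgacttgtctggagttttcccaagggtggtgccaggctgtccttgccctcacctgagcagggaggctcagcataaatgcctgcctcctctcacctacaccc
Saa2: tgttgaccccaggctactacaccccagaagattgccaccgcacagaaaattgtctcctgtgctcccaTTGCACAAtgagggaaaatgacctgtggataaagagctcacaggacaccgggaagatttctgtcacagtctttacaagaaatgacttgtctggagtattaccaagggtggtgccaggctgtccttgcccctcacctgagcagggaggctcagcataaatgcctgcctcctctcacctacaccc
Saa3: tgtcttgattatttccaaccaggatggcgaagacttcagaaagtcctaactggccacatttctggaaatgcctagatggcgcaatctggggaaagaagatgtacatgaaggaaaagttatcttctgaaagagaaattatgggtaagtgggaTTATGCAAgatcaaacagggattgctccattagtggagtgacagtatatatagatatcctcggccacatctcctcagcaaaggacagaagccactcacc

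Saa3 (1450826_a_at) gave 326, 209 and 202 in FRG-7dNTBC livers, against 179, 168 and 159 in FRG+NTBC livers. The groups did not overlap, but FRG-7dNTBC replicate 1 stood apart from the others of its group and the difference was not called. The means were 246 ± 69.6 in FRG-7dNTBC livers and 168 ± 9.94 in FRG+NTBC livers (SD, n = 3 mice each), with a log2 fold change of 0.51 (95% interval 0.07 to 0.96, limma adjusted p = 0.0865). It was 0.29 without FRG-7dNTBC replicate 1, and it was called without FRG-7dNTBC replicate 3 (0.64, limma adjusted p = 0.0480) and with arrays weighted by how well they fit (0.75, limma adjusted p = 0.0132). The 6 macrophage markers called higher in FRG-7dNTBC livers are given above, and their part in this difference was not tested.

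Saa4, the constitutive member of the family and a neighbour of the others in the cluster, had 1 called probe set and 1 that was not called. Intensities at 1419318_at were 1144, 1136 and 729 in FRG-7dNTBC livers, against 4300, 4871 and 5405 in FRG+NTBC livers (log2 fold change -2.30, SE 0.20, limma adjusted p = 0.000193). The dimmer 1419319_at varied widely within groups, with 138, 261 and 52.7 in FRG-7dNTBC livers and 103, 217 and 290.0 in FRG+NTBC livers, and its log2 fold change was -0.59 (SE 0.58, limma adjusted p = 0.494). The 2 probe sets of Saa4 thus differ in size and in call.

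Itih3 and Itih4 belong to the inter-alpha-trypsin inhibitor heavy chains, plasma proteins that, except for ITIH4, are linked covalently to hyaluronan and so stabilise the extracellular matrix. ITIH4 lacks the site for the bikunin chain and is an acute phase member of the family. Both genes lie on chromosome 14 (Itih4 at 30886476 to 30901986 and Itih3 at 30908572 to 30923787). Itih3 (1449123_at) measured 1261, 1226 and 1269 in FRG-7dNTBC livers, against 2592, 3444 and 3397 in FRG+NTBC livers. FRG-7dNTBC livers were almost equal and all lay below FRG+NTBC livers, of which replicate 1 was the lowest. The means were 1252 ± 22.9 in FRG-7dNTBC livers and 3144 ± 479 in FRG+NTBC livers (SD, n = 3 mice each), with a log2 fold change of -1.32 (SE 0.14, limma adjusted p = 0.000512). Itih3 was called under every setting that gave a test, including without moderation.

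Itih4 (1431808_a_at) measured 3421, 1938 and 3956 in FRG-7dNTBC livers, against 7281, 8079 and 8841 in FRG+NTBC livers. The groups were separated, and here the spread was larger among FRG-7dNTBC livers, where replicate 2 was the lowest. The log2 fold change was -1.44 (SE 0.25, limma adjusted p = 0.00429), with means of 3105 ± 1046 in FRG-7dNTBC livers and 8067 ± 780 in FRG+NTBC livers (SD, n = 3 mice each). Without moderation of the variances the adjusted p was 0.0643. Itih1, which neighbours both genes, was lower as well, with 300.3, 360 and 357 in FRG-7dNTBC livers and 1652, 2257 and 2135 in FRG+NTBC livers (1417973_at, log2 fold change -2.56, SE 0.16, limma adjusted p = 5.51e-05).

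Itih2 and Itih5, the heavy chain genes on chromosome 2, had no probe set that was called lower. Itih2 (1417618_at) gave 3875, 3492 and 2778 in FRG-7dNTBC livers and 3492, 2998 and 2647 in FRG+NTBC livers, with overlapping groups and a log2 fold change of 0.15 (SE 0.17, limma adjusted p = 0.561). Itih5 had 3 probe sets, of which the 2 brighter were not called (0.37 and 0.43, limma adjusted p = 0.461 and 0.320) and the dimmest was higher (1436755_at, 1.34, SE 0.26, limma adjusted p = 0.00695). When FRG-7dNTBC replicate 2 was left out, the brightest was called as well (0.79, limma adjusted p = 0.0144). Ambp, which encodes the precursor of bikunin, the light chain that joins the heavy chains, was not called (0.09, SE 0.12, limma adjusted p = 0.601).

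**Figure D2:**
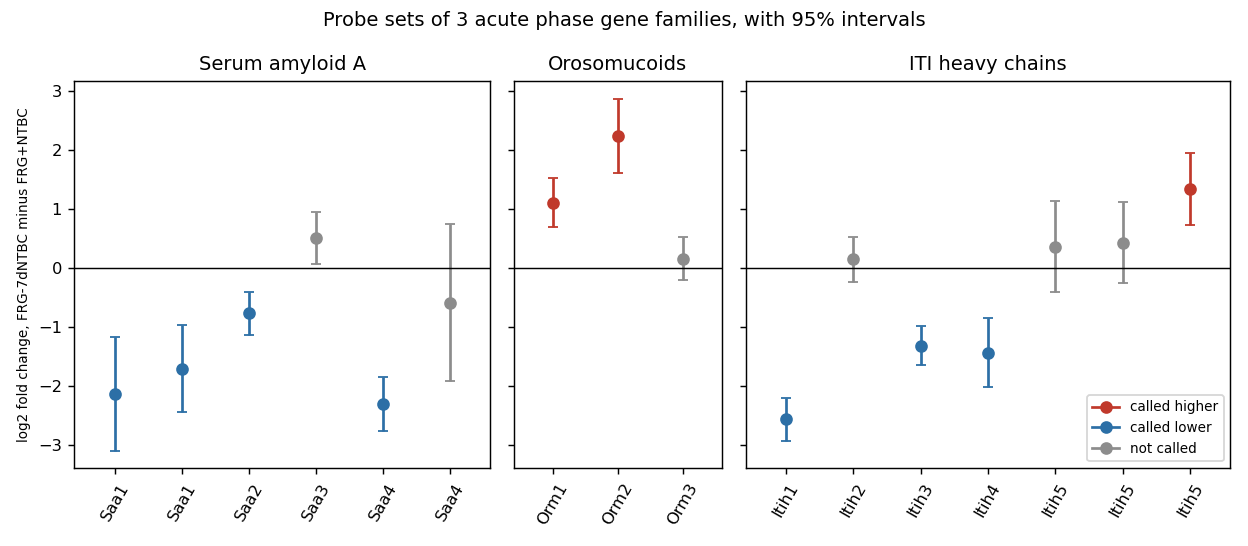
Log2 fold change (FRG-7dNTBC over FRG+NTBC) and its 95% interval for each probe set of the serum amyloid A, orosomucoid and inter-alpha-trypsin inhibitor (ITI) heavy chain genes, with red for called higher, blue for called lower and grey for not called. Within the serum amyloid A family the probe sets of Saa1, Saa2 and Saa4 lie below 0, with 1 of the 2 for Saa4 not called, and Saa3 lies above it, and among the heavy chains Itih1, Itih3 and Itih4 lie below 0.

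Apcs and Itih4 held a match to the STAT motif TTCNNNGAA in the 250 bases before the start, beginning 244 and 51 bases upstream, and are shown because Apcs was higher and Itih4 lower in FRG-7dNTBC livers. Capitals mark the match, and the windows are chr1:172895055-172895304 and chr14:30886226-30886475.
Apcs: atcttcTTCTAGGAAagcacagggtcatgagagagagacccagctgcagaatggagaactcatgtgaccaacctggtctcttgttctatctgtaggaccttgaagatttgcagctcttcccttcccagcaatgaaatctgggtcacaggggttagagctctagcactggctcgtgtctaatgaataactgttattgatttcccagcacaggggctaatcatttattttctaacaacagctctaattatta
Itih4: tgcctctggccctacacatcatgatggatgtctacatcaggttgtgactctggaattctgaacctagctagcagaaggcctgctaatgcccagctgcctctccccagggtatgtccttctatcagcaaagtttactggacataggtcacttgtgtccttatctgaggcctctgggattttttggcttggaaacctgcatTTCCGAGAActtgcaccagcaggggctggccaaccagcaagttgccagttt
Promoter windows of 8 of the 10 genes were available, which leaves out Orm1 and Hp, and 200 of the 250 bases for Itih3 lie inside its gene range. The C/EBP motif was found on either strand in 5 of these 8 windows (Saa1, Saa2, Saa3, Orm2 and Lcn2), against 9.56% of 32851 mouse windows of the same length, and Saa1 and Saa2 are not independent, being near copies. The genes with a C/EBP match include both called directions, since Lcn2 and Orm2 were higher and Saa1 and Saa2 lower. The STAT motif was found in 2 of the 8 windows, against 7.02% of all windows. The core of the antioxidant response element bound by NRF2 (TGACNNNGC) was found in the Itih3 window only, against 10.2% of all windows, and the NF-kappaB motif in 0 of 8, against 7.25% of all windows. No window held matches to 2 of these motifs, and the matches describe letters in the sequence, not bound sites.

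Hp encodes haptoglobin, which captures free haemoglobin for uptake by the macrophage receptor CD163. Its probe set (1448881_at, chromosome 8, 109575128 to 109579172) was among the brightest of every array, between the 99.7th and the 99.9th percentile. It gave 12331, 14766 and 10297 in FRG-7dNTBC livers, against 13125, 14263 and 14869 in FRG+NTBC livers. The groups overlapped, and FRG-7dNTBC livers had both the lowest value and the next to highest. The means were 12465 ± 2237 in FRG-7dNTBC livers and 14086 ± 885 in FRG+NTBC livers (SD, n = 3 mice each), with a log2 fold change of -0.19 (95% interval -0.55 to 0.17, limma adjusted p = 0.410). Cd163 (1419144_at) was higher, with 131, 140.1 and 265 in FRG-7dNTBC livers and 97.7, 68.6 and 89.3 in FRG+NTBC livers (log2 fold change 1.01, SE 0.28, limma adjusted p = 0.0287), a call that was lost without moderation and when any 1 of the FRG+NTBC mice was left out.

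**Figure D3:**
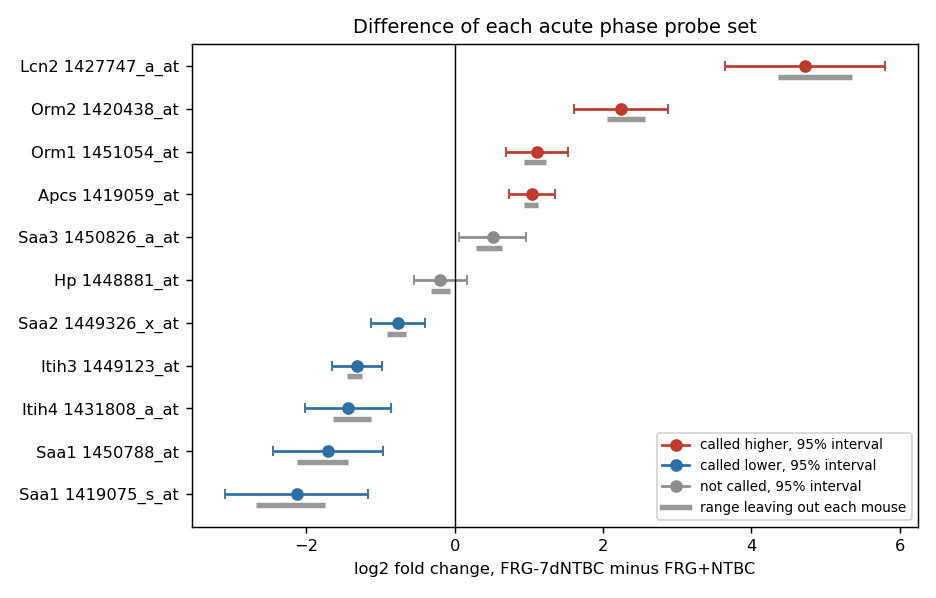
Log2 fold change (FRG-7dNTBC over FRG+NTBC) of the 11 acute phase probe sets with the 95% interval from limma, ordered from the largest rise (Lcn2, 4.73) to the largest fall (Saa1 1419075_s_at, -2.13); the grey bar under each point spans the values obtained when each of the 6 mice was left out in turn. None of the grey bars crosses 0, and the interval of Hp is the one that includes 0.

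The mice of a group did not vary alike at every gene. FRG+NTBC replicate 1 was the lowest of its group at 8 of the 11 probe sets, namely those of Saa1, Saa2, Orm1, Hp, Apcs, Itih3 and Itih4, and was the highest of its group at Saa3 and Orm2. Among FRG-7dNTBC mice, replicate 2 was the lowest at 5 probe sets and replicate 3 at 4. The spread between FRG+NTBC mice was widest at 1419075_s_at of Saa1, where the highest mouse was 3.61 times the lowest, and narrowest at Apcs, at 1.08 times. Between FRG-7dNTBC mice it was widest at Lcn2, at 3.94 times, and narrowest at Itih3, at 1.04 times. Leaving out FRG+NTBC replicate 1 changed no call among the 11 probe sets, and leaving out any 1 mouse changed only that of Saa3.

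Other acute phase genes were also divided in direction. Of 25 further genes listed as induced in the acute phase, 3 were called higher and 9 lower, against 17.4% and 12.7% of the 18193 genes measured at their brightest probe set. Their median log2 fold change was -0.49, against -0.05 over all genes. The 9 lower genes include Saa4, which is constitutive, and Crp, which is minor in the mouse. Without moderation 5 of the 25 were lower. The metallothionein Mt2, a metal-binding protein, was the largest rise (4804, 2628 and 2998 in FRG-7dNTBC livers, against 176, 224 and 298 in FRG+NTBC livers, log2 fold change 3.88, limma adjusted p = 8.08e-05). Cd14, a co-receptor for lipopolysaccharide, was higher too (2.60, limma adjusted p = 0.000426). Its FRG+NTBC values of 33.8, 41.9 and 41.4 lay near the median of the arrays, so the size of that fold is uncertain. Lrg1, a leucine-rich glycoprotein, measured 385, 160 and 360 in FRG-7dNTBC livers, against 1380, 3061 and 2998 in FRG+NTBC livers (log2 fold change -3.05, limma adjusted p = 0.00119). Mbl1, a mannose-binding lectin of the complement system, was lower by 2.79 on the log2 scale (limma adjusted p = 3.41e-05).

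Hamp (hepcidin, the iron hormone), Hpx (hemopexin, which binds haem) and Serpina3n (a protease inhibitor) were not called, at -0.29, 0.26 and -0.57 on the log2 scale (limma adjusted p = 0.460, 0.145 and 0.153). Of 12 negative acute phase genes, 0 were called higher and 3 lower by limma (also 0 and 3 at a raw p under 0.05), with a median of -0.11. Alb (albumin) was not called, at 0.08 (SE 0.11, limma adjusted p = 0.620), with intensities of 26616 to 27939 in FRG-7dNTBC livers and of 25355 to 26616 in FRG+NTBC livers. These are near the highest intensity of any probe set on these arrays, so no lack of change is read from them. The called genes were Pon1, the lipoprotein-bound paraoxonase (-1.56), F12, coagulation factor XII (-0.70), and Igf1, the growth hormone-dependent growth factor (-0.66), with adjusted p-values of 0.000488, 0.00444 and 0.0154 from limma. The Igf1 call at this probe set, the brightest of the gene, was lost without moderation and without FRG+NTBC replicate 1 or 3. The authors list other Igf1 probe sets of these arrays with much larger falls, so this value does not give the size for the gene.

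**Figure D4:**
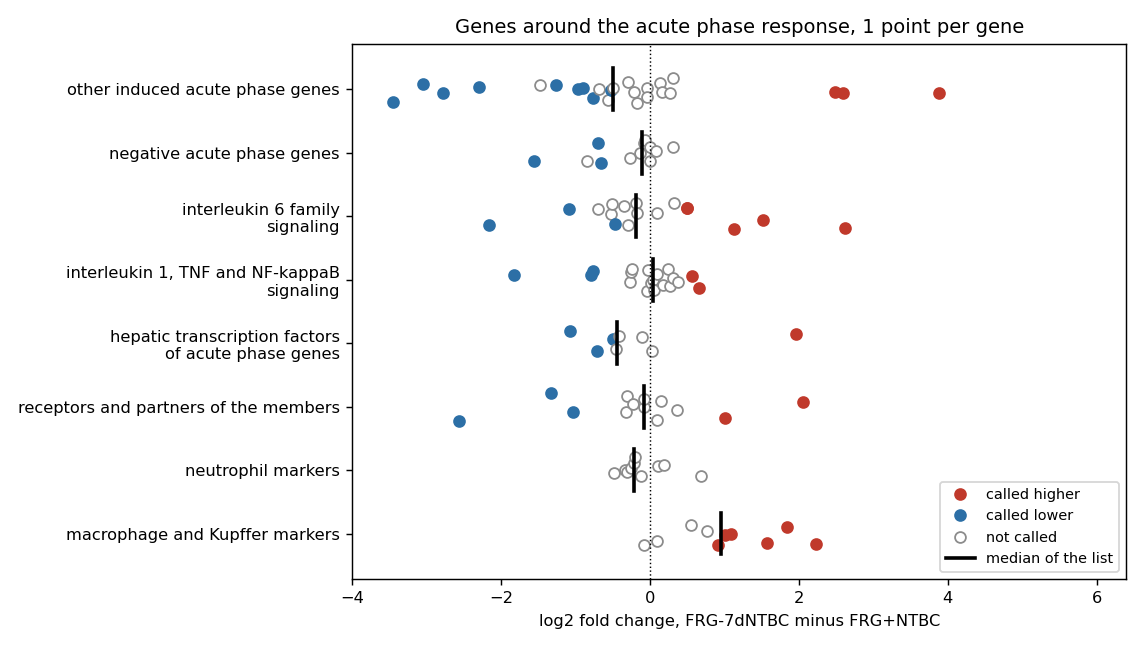
Log2 fold change (FRG-7dNTBC over FRG+NTBC) of the genes of 8 lists, 1 point per gene at its brightest probe set; red is called higher, blue called lower, open grey not called, and black bars are medians. The genes listed as further induced ones, which include Saa4 and Crp, fall on both sides of 0, from -3.45 (Crp) to 3.88 (Mt2). Neutrophil markers lie near 0 and macrophage markers lie mostly above it.

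Among 17 genes of interleukin 6 family signaling, 5 were called higher and 3 lower, against 17.4% and 12.7% of all genes, with a median log2 fold change of -0.19. After rescaling the arrays, either to one 75th percentile or to equal quantiles, 3 were higher and 5 lower. The count of higher genes was 3 when FRG+NTBC replicate 1 was left out and 2 when replicate 2 was. Il6 itself had intensities of 5.66 to 8.17 in FRG-7dNTBC livers and of 5.10 to 6.87 in FRG+NTBC livers, near the bottom of the scale, with no difference called (0.10, limma adjusted p = 0.732). Clcf1, a ligand of the family, was higher by 2.62 and Il6ra, the interleukin 6 receptor, was lower at -2.16 on the log2 scale (limma adjusted p = 0.000309 and 0.000815). FRG+NTBC values of Clcf1 were 25.3, 15.0 and 16.9, low on the scale, so the size of its fold is uncertain. The authors list another Clcf1 probe set of these arrays with a larger rise. The kinase gene Jak1 was higher by 1.52 and Osmr, the oncostatin M receptor, by 1.13 (limma adjusted p = 0.00283 and 0.0220), and neither was called without moderation. The Osmr call was also lost when any 1 of the FRG+NTBC mice was left out. Stat3, the factor at the end of the pathway, was 0.49 (limma adjusted p = 0.0160), a call lost under both rescalings and without FRG-7dNTBC replicate 1 or FRG+NTBC replicate 2. Socs3, an inhibitor induced by STAT3, was not called, with 237, 182 and 246 in FRG-7dNTBC livers and 313, 653 and 224 in FRG+NTBC livers, and Bcl3, a nuclear NF-kappaB cofactor, was lower (-1.09, limma adjusted p = 0.000873).

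Among 19 genes of interleukin 1, TNF and NF-kappaB signaling, 2 were called higher and 3 lower, against 17.4% and 12.7% of all genes. Their median log2 fold change was 0.04, and nothing is read from these counts. Il1rap, the accessory chain of the interleukin 1 receptor, measured 474, 699 and 410.2 in FRG-7dNTBC livers, against 1951, 1663 and 1872 in FRG+NTBC livers (log2 fold change -1.83, limma adjusted p = 0.000520). The kinase genes Irak1 and Ikbkb were lower at -0.80 and -0.77, and Il1a was higher at 0.66 (limma adjusted p = 0.00702, 0.0119 and 0.0194). These 3 calls were lost without moderation, and those of Ikbkb and Il1a also without FRG-7dNTBC replicate 1 or FRG+NTBC replicate 2, and that of Il1a without FRG+NTBC replicate 1. Tnf and Il1b were not called (0.24 and -0.27, limma adjusted p = 0.218 and 0.221) and had low intensities, from 26.5 to 35.5 for Tnf and from 36.3 to 52.0 for Il1b.

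Of 8 transcription factors that control acute phase genes in hepatocytes, 1 was called higher and 3 lower, against 17.4% and 12.7% of all genes. Their median log2 fold change was -0.44. Cebpd, the C/EBP member that is induced by cytokines, measured 212, 298 and 234 in FRG-7dNTBC livers, against 71.0, 65.8 and 54.2 in FRG+NTBC livers (log2 fold change 1.96, SE 0.17, limma adjusted p = 0.000199). Cebpa, the C/EBP member of resting hepatocytes, measured 2241, 1771 and 2048 in FRG-7dNTBC livers, against 3641, 4482 and 4608 in FRG+NTBC livers (log2 fold change -1.07, SE 0.15, limma adjusted p = 0.00149). The groups were separated for both genes, in opposite directions. Cebpb was not called (-0.11, SE 0.14, limma adjusted p = 0.60). The glucocorticoid receptor gene Nr3c1 was lower (-0.72, limma adjusted p = 0.00810), and so was Hnf4a (-0.50, limma adjusted p = 0.0225), although the Hnf4a call was lost without FRG-7dNTBC replicate 1 or 2 and without FRG+NTBC replicate 2 or 3.

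Of 13 genes for receptors and partners of these proteins, 2 were called higher (Tnfaip6 and Cd163) and 3 lower, against 17.4% and 12.7% of all genes. Their median log2 fold change was -0.09. Only 1 gene was called higher when any FRG+NTBC mouse was left out, without moderation, and without dim probe sets. Tnfaip6, whose product TSG-6 transfers the heavy chains onto hyaluronan, measured 45.6, 29.7 and 56.9 in FRG-7dNTBC livers, against 8.11, 13.0 and 10.3 in FRG+NTBC livers (log2 fold change 2.05, SE 0.26, limma adjusted p = 0.000995). FRG+NTBC values were low on the scale, so the size of that fold is uncertain. Scarb1, a lipoprotein receptor that also binds serum amyloid A, and Lrp1, a clearance receptor, were lower (-1.03 and -1.34, limma adjusted p = 0.00114 and 0.00324). The Lrp1 call at this probe set, the brightest of the gene, was lost without moderation. The authors list another Lrp1 probe set of these arrays with a larger fall.

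The genes whose log2 values over the 6 arrays were most like those of Saa1, Lcn2 and Orm2 are given as a description, among 7681 probe sets that were bright and variable enough, with no test. For Saa1 (1450788_at) they were Abca2, Aldh9a1 and Tut7, with Pearson r of 0.996, 0.994 and 0.993. Aldh9a1, an aldehyde dehydrogenase, had intensities of 1370.04, 1333 and 1296 in FRG-7dNTBC livers and of 1924, 3327 and 3169 in FRG+NTBC livers, with the same low FRG+NTBC replicate 1 as Saa1. For Lcn2 they were Clcn5, Dynll1 and Id3, each with r of 0.997, and for Orm2 Copg1, Hspa13 and Nop14, with r of 0.999, 0.998 and 0.998. The points share the 6 arrays and fall into the 2 groups of mice.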

How the data were processed

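Whole-liver RNA of 3 FRG-7dNTBC and 3 FRG+NTBC mice was measured on 1 array per mouse. Robust Multiarray Analysis (background correction, quantile normalization, median polish) was run by the authors, with the Transcriptome Analysis Console named in the submitters' processing notes, and gave the deposited intensity values. Values are on a linear scale (3.84 to 29532), and log2 was taken here; 98.9% of the log2 values lie within 0.001 of a multiple of 0.01, so equal values are due to rounding.

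Genes were named through the array annotation (34945 probe sets with 1 symbol, 932 with several, 9160 with none), updated through RefSeq. Groups were compared with limma 3.58.1 in R 4.3.3 (lmFit, eBayes, no covariates), with Benjamini-Hochberg adjustment over 45037 probe sets and tested on simulated data first. An exact permutation test of 3 mice against 3 cannot go below 0.1, and the number of arrays limits the precision. Means and SDs are of linear intensities, and folds are from log2 means.

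The members and lists were chosen with earlier results of these data known. From each list the best known member and up to 4 of the largest called changes were named; Saa4, Orm3, Cd14, Hamp, Hpx, Serpina3n, Stat3, Socs3, Bcl3, Il1b, Itih2, Itih5 and Ambp were named after their values were seen. Genes most like Saa1, Lcn2 and Orm2 were taken among probe sets with a mean log2 intensity of at least 6 and a range of at least 1. Among listed genes, C3, C4b, Serpina3m, Trf, Nfkb1 and Fpr1 had no single-symbol probe set and were not analysed here. The comparison was repeated after rescaling the arrays (75th percentile or quantiles), without dim probe sets or those with suffixes for several transcripts, with a trended robust prior, without a prior, with array weights, with a replicate block, with a 2-fold minimum, with medians, and without each mouse in turn.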

Additional observations from a re-analysis of the deposited data

How the results depend on the processing

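Of 148 tested values of the 11 acute phase probe sets under the alternatives, 142 kept direction and call, 4 lost the call, 2 gained it and 0 changed sign, and 0 of 11 changed sign with medians, which give no test. Without moderation of the variances 1 probe set was called lower (Itih3), against 5, and 4 were still called higher. Without probe sets that can match several transcripts (suffixes _s_at, _x_at and _a_at) 2 were called lower, since 1419075_s_at of Saa1, Saa2 and Itih4 are such probe sets. Only 3 were called higher, since the probe set of Lcn2 is such a one too, so Lcn2 was not tested in this setting. The equal replicate numbers did not mark pairs, with correlations of the deviations of 0.11, 0.03 and -0.16, and with the replicate number as a block 4 acute phase probe sets were higher and 5 lower, with 6076 and 5272 of all probe sets, against 6284 and 6262 without it. Under the block the Hnf4a call was lost (limma adjusted p = 0.0563). Scaling to one 75th percentile shifted the median of all probe sets by -0.13 and gave 5366 higher and 9669 lower (35.7% of calls higher, against 50.1%), but no acute phase call changed. Over all probe sets, 3141 were higher and 3336 lower without moderation. Without dim probe sets 55.6% of calls were higher, and 4 acute phase probe sets were called lower, since Saa2 was among those left out.

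Among the other genes named, 526 tested values kept direction and call, 30 lost the call, 1 gained it and 7 changed sign, none of these 7 in a called gene, while with medians, which give no test, 2 of 41 changed sign, Hamp (0.04) and Il6 (-0.11). Scaling to one 75th percentile turned Alb to -0.047, Il6 to -0.033 and Ambp to -0.037, and quantile normalization turned Itih2 to -0.0025. Leaving out each mouse in turn gave -0.46 to 0.045 for Hamp and -0.059 to 0.21 for Il6. Low intensity limits Lcn2, Orm2, Saa2, the Saa1 probe set 1419075_s_at, Tnfaip6, Clcf1, Cd14 and Il6. Among counts of context lists, 389 kept within 1.5 times and 59 did not. Counts of 0 that stayed 0 are among those kept, so these numbers do not measure how stable the calls were. The causes were not tested.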

Other observations

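Genes next to the acute phase genes were examined after the values were seen. Within 100 kb of a member, 35 other genes were measured, of which 8 were called higher, 5 lower and 22 not, with a median log2 fold change of 0.08. Over all genes 17.4% were called higher and 12.7% lower, and nothing is read from the counts near the acute phase genes. Near Itih3 and Itih4, Sfmbt1, a Polycomb-associated protein gene, was lower (-1.15, limma adjusted p = 0.000574) and Pbrm1, a chromatin remodeling subunit, was lower (-0.97, limma adjusted p = 0.0106), while Gnl3, which encodes nucleostemin, and Nek4, a kinase gene, were higher (1.003 and 0.74, limma adjusted p = 0.00419 and 0.0310). Near Lcn2, itself higher, 1110008P14Rik, Swi5 and Naif1 were higher (1.10, 0.71 and 0.43, limma adjusted p = 0.00372, 0.0357 and 0.0296). Next to Orm1 and Orm2, both higher in FRG-7dNTBC livers, Col27a1, a fibrillar collagen gene, was lower (-2.57, limma adjusted p = 0.000791). Near Hp, which was not called, the splicing helicase gene Dhx38 was higher (0.97, limma adjusted p = 0.00138). Near the serum amyloid A genes, Gtf2h1, a subunit of the transcription factor TFIIH, and Sergef were higher (0.55 and 0.58, limma adjusted p = 0.0274 and 0.0444). Itih1 and Saa4, also among the 35, are given above.

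Markers of other cells were mixed. Of 5 cholangiocyte markers limma called 0 in either direction (1 higher and 1 lower at a raw p under 0.05), and no value exceeded 103.25. The count of higher ones was 1 with array weights, with a replicate block or without FRG-7dNTBC replicate 2. That of lower ones was 1 after scaling to one 75th percentile. Lymphocyte markers, which these mice should lack, summed to 214 to 223 in FRG-7dNTBC livers and 219 to 236 in FRG+NTBC livers over 6 genes, and limma called 0 in either direction (0 and 0 at a raw p under 0.05). Of 5 endothelial markers 2 were called higher and 0 lower, and of 5 stellate cell markers 1 was called higher and 0 lower. The shares over all genes were 17.4% and 12.7%. Higher stellate markers numbered 2 with array weights or without FRG-7dNTBC replicate 2, and 0 without moderation or without FRG+NTBC replicate 3. Under either rescaling and with array weights 1 stellate marker was called lower. Endothelial calls numbered 1 without FRG-7dNTBC replicate 1, FRG+NTBC replicate 1 or FRG+NTBC replicate 2, and also without moderation or after quantile normalization. Adipocyte markers, of interest because adipocytes can make serum amyloid A, gave 0 calls by limma among 3 genes (0 and 0 at a raw p under 0.05), with sums of 59.5 to 81.7 in FRG-7dNTBC livers and 67.6 to 79.2 in FRG+NTBC livers.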
